A study of Mus musculus with 12 samples.

Results

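The genes described here are 9 cytokine and innate receptor genes of mouse liver tumour cells, taken by name out of the 770 genes of the NanoString® nCounter® Mouse PanCancer Pathways panel. They are the cytokines *Csf2*, *Cxcl5*, *Il6* and *Lif*, the receptors *Cd40*, *Il3ra*, *Tlr2* and *Tlr4*, and the adaptor *Myd88*. They were chosen for the responses of *Csf2*, *Cd40* and *Cxcl5* to *Dusp4* siRNA, so the values of siRNA against SCR are given for all 9 genes as a description, with no test. The difference between the 2 cell lines was tested, except for *Csf2* and *Cd40*, which were at the floor of the assay throughout 1 line, and except within a treatment for *Cxcl5*, because its samples there are those whose response chose it.

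Both lines come from 1 source. AKT/NRAS is a hepatocellular carcinoma cell line from a mouse that received, by hydrodynamic injection into the tail vein, myristoylated AKT between loxP sites (flox/flox) together with an activated NRAS carrying valine for glycine at codon 12. AKT Cre/NRAS was made from it by transfection of Cre recombinase, which removed AKT and left NRAS as the only introduced oncogene, and whether it is 1 clone is not given in the sources used here. AKT Cre/NRAS siRNA, AKT Cre/NRAS SCR, AKT/NRAS siRNA and AKT/NRAS SCR had 3 biological replicates each, where siRNA is a pool against *Dusp4*, a phosphatase gene of the MAPK pathway, and SCR is a negative control pool. Every culture was transfected on 2 occasions and then harvested. The assay counts single mRNA molecules that carry a fluorescent barcode, without amplification.

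The total of recovered barcode counts per sample was 641790 to 1081646, and the highest of the 8 negative controls read 11 to 20 counts. Values are given in normalized counts, which are the deposited values rescaled with 15 reference genes, and 27.1 normalized counts is the floor under which no level was read. *Dusp4* averaged 4023 ± 221 in AKT Cre/NRAS siRNA and 5556 ± 963 in AKT Cre/NRAS SCR (SD, n = 3 each), a log2 difference of -0.45 (limma, adjusted p = 0.0178). As deposited, these siRNA and SCR samples overlapped, with 3913, 4527 and 4548 in siRNA and 7180, 8290 and 4154 in SCR. *Dusp4* averaged 370.1 ± 19.7 in AKT/NRAS siRNA and 1228 ± 43.8 in AKT/NRAS SCR, a log2 difference of -1.73 (adjusted p = 1.13e-06). Of 9 measured leukocyte markers, 8 were at the floor in all 12 samples, among them *Csf1r* and *Csf3r*, and *Cd14* was above it. All 5 measured hepatocyte, biliary or progenitor markers were above the floor in AKT Cre/NRAS, while in AKT/NRAS *Prom1* was at it in all 6 samples. Among 5 measured endothelial and mesenchymal markers, *Flt1* and *Pdgfra* were above the floor in every sample, *Col1a1* was near it, and *Kdr* and *Pdgfrb* were at it. The summed level of the leukocyte markers was 1846 to 1925 in AKT Cre/NRAS siRNA, 1844 to 2007 in AKT Cre/NRAS SCR, 1649.7 to 1749 in AKT/NRAS siRNA and 1539 to 1723 in AKT/NRAS SCR. That of the endothelial and mesenchymal markers was 883 to 1063, 561 to 831, 1071 to 1122 and 1418 to 1549, in the same order of groups, and their part in the results was not tested. Markers at the floor enter both sums at 27.1 each, so the leukocyte sum varies with *Cd14* alone. The *Rpl19* to *Polr2a* ratio, on the log2 scale, stood at 4.72, 4.92 and 5.03 in AKT Cre/NRAS siRNA and 5.48, 6.36 and 6.88 in AKT Cre/NRAS SCR, and lay between 3.81 and 3.92 in the 6 AKT/NRAS samples. The AKT Cre/NRAS SCR replicates thus stood apart from each other and from the rest, and the part of this in the results below was not tested. *Dusp4* decreased over these 3 samples as the ratio increased, at 6343, 5843 and 4483 normalized counts, and the part of that was not tested.

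Tumour cells can secrete cytokines that recruit and instruct myeloid cells. *Csf2* encodes GM-CSF, a growth factor of granulocytes and macrophages, *Cxcl5* a chemokine that attracts neutrophils through Cxcr2, and *Il6* and *Lif* are cytokines of one family that signal through gp130 to JAK and STAT. *Cd40* encodes a receptor of the TNF receptor family and *Tlr2* and *Tlr4* receptors for bacterial lipoproteins and lipopolysaccharide. These receptors lead to NF-kappaB, the Toll-like receptors through the adaptor encoded by *Myd88*. *Il3ra* encodes the ligand-binding chain of the IL-3 receptor, which pairs with the beta chain that the GM-CSF receptor also uses.

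RefSeq promoter sequences (GRCm38.p6, 250 bases before to 50 after the gene's start) were at hand for 6 of the 9 genes, and in 4 of them (*Csf2*, *Il6*, *Lif* and *Myd88*) the start is that of the annotated gene. Those of 3 secreted factors are shown, since they show 3 different patterns: *Csf2* was above the floor in only 1 of the 2 lines, *Lif* in both and *Il6* in neither. Capitals mark matches to the AP-1 motif TGANTCA or to the NF-kappaB consensus, both strands read 5′ to 3′. The *Csf2* promoter lies at chr11:54249850-54250149 on the minus strand, the *Lif* promoter at chr11:4257318-4257617 on the plus strand and the *Il6* promoter at chr5:30012864-30013163 on the plus strand.
Csf2: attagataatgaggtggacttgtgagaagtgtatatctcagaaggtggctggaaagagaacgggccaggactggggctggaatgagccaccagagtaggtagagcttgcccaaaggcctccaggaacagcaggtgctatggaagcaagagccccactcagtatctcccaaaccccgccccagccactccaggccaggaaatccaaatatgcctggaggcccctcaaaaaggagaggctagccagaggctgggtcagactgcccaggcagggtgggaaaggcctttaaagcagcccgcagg
Lif: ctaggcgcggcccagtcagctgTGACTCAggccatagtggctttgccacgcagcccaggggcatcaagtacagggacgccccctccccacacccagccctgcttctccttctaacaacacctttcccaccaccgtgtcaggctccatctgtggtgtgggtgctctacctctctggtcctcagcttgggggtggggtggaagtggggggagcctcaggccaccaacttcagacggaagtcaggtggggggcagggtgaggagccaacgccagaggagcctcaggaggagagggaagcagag
Il6: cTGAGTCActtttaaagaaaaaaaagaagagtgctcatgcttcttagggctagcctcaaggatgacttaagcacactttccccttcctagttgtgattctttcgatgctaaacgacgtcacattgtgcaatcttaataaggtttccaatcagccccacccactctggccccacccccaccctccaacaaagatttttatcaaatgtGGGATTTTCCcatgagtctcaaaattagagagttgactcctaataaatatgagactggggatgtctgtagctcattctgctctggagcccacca

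The *Lif* window held 1 AP-1 match at bases 23 to 29, the *Il6* window 1 AP-1 match at bases 2 to 8 and 1 NF-kappaB match at bases 207 to 216, and the *Csf2* window no match to these letters. Of the windows not shown, that of *Tlr2* held 3 NF-kappaB matches, 2 of which overlap. *Myd88* had 1 match to the STAT motif TTCNNNGAA, and *Il3ra* had no match to any of these motifs. Among all 32851 promoters of the table, 7.81% held the AP-1 motif, 8.30% the STAT motif and 4.51% the NF-kappaB consensus.

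Between the lines, *Il3ra* and, modestly, *Lif* were higher in AKT Cre/NRAS under both treatments, and *Tlr4* was lower. *Csf2* and *Cd40* were above the floor in AKT Cre/NRAS and at it in AKT/NRAS. *Cxcl5* was higher averaged over treatments, *Tlr2* and *Myd88* did not pass, and *Il6* was at the floor in all 12 samples. Under SCR, 3 of the 5 genes tested passed limma's threshold, 2 of them higher and 1 lower, where 28.9% of the 515 genes of the panel tested were higher and 48% lower. Under siRNA the same 3 of 5 passed in the same directions, against 36.6% higher and 37.9% lower of 522 genes tested. With both treatments averaged, which leaves the response to siRNA out, 4 of 6 passed, 3 higher and 1 lower, against 35.4% and 45.9% of 525 genes. In either direction, 76.9%, 74.5% and 81.3% of the genes tested passed under SCR, under siRNA and averaged. Under SCR 30.7% of genes were higher and 49.1% lower without overlap, under siRNA 37.9% and 38.7%, and over all 12 samples 26.1% and 34.1%. Changed genes were thus common in the panel as a whole. The median log2 difference of all genes tested was -0.22 under SCR and -0.00053 under siRNA. Other scalings moved the median under SCR to between -0.62 and 0.25. In bulk RNA, fewer cells that express a gene and less of its RNA per cell cannot be told apart.

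**Figure D1:**
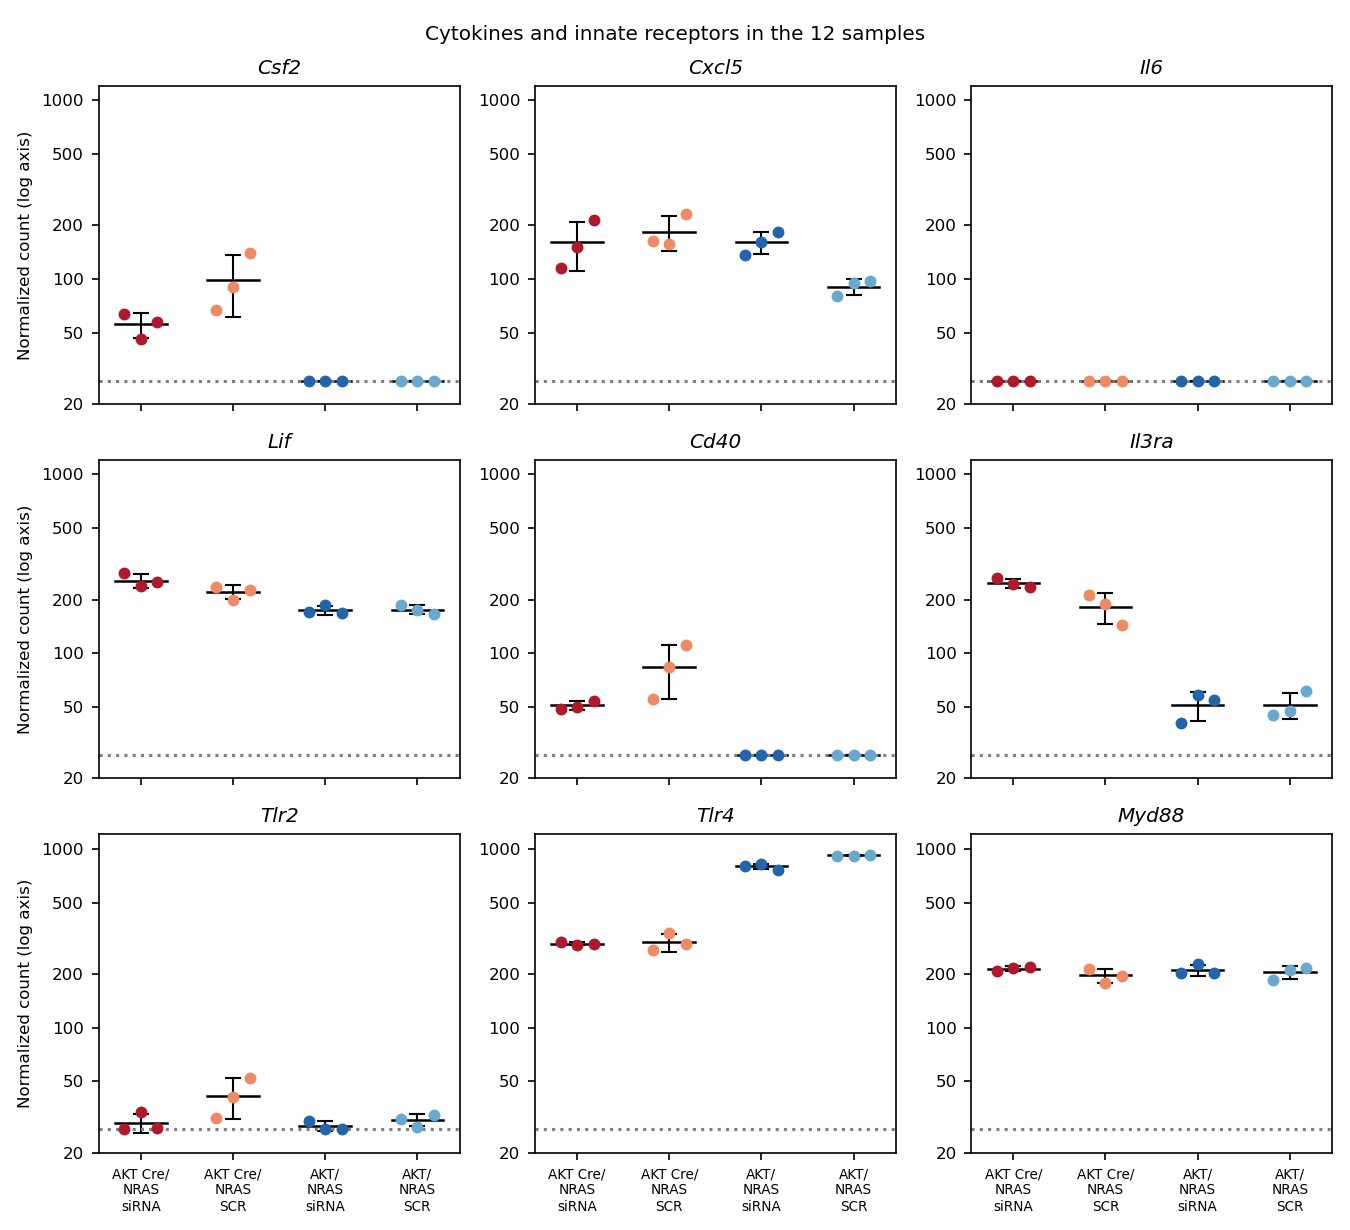
Normalized counts of the 9 genes in the 12 samples, on a log axis, with siRNA left of SCR and AKT Cre/NRAS left of AKT/NRAS. Points are replicates, bars the mean and SD, and the dotted line the floor of 27.1 normalized counts: *Csf2* and *Cd40* are above it in AKT Cre/NRAS only, and *Il6* in no sample.

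*Csf2* had 63.6, 46.4 and 57.8 normalized counts in AKT Cre/NRAS siRNA and 66.9, 90.4 and 140.5 in AKT Cre/NRAS SCR, and was at the floor in all 6 AKT/NRAS samples. All 6 samples of AKT Cre/NRAS lay above all 6 of AKT/NRAS. Under SCR its mean was 99.3 ± 37.6 in AKT Cre/NRAS (SD, n = 3), at least 3.67-fold higher than the floor of AKT/NRAS. Under siRNA it was 55.9 ± 8.76, at least 2.07-fold higher. No p is given for either, since the samples at the floor have no spread. Across 7 scalings these bounds were 2.56-fold to 5.59-fold under SCR and 1.94-fold to 2.78-fold under siRNA. The levels rest on few molecules. The recovered counts were 57, 47 and 67 in AKT Cre/NRAS siRNA and 71, 101 and 126 in AKT Cre/NRAS SCR, and an exact Poisson 95% interval around 47 runs from 34.5 to 62.5, for counting error only. In AKT/NRAS siRNA, replicates 2 and 3 read 21 and 27 counts, against highest negative controls of 11 and 19, and the other AKT/NRAS samples were at the deposited floor of 20.

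*Csf2* was lower in all 3 AKT Cre/NRAS siRNA samples than in all 3 AKT Cre/NRAS SCR samples, with a log2 difference of -0.76. The panel's median moved the other way in that comparison, by 0.23, and 9.34% of 503 genes were lower without overlap between the groups, a share from which nothing is read because this response chose the gene. The difference lay between -1.06 and -0.31 across 7 scalings. It was -0.48 without AKT Cre/NRAS SCR replicate 3, the highest sample, and -1.01 without replicate 1. *Csf2* increased over the 3 AKT Cre/NRAS SCR samples in the same order as the *Rpl19* to *Polr2a* ratio, and the part of that ratio in the response was not tested.

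*Cd40* followed *Csf2* closely. It had 49.1, 50.3 and 54.3 normalized counts in AKT Cre/NRAS siRNA and 55.6, 84.2 and 111 in AKT Cre/NRAS SCR, while all 6 AKT/NRAS samples were at the floor, also before rescaling. The lines did not overlap under either treatment. Under SCR the mean was 83.7 ± 28.0 in AKT Cre/NRAS, at least 3.09-fold higher than the floor of AKT/NRAS, and under siRNA it was 51.3 ± 2.74, at least 1.89-fold higher, again with no p. These bounds ranged from 2.18-fold to 4.80-fold and from 1.78-fold to 2.78-fold over the scalings. Within AKT Cre/NRAS, siRNA samples were below SCR samples without overlap, although 54.3 and 55.6 lie close together, and the log2 difference was -0.64, where 9.34% of genes were lower without overlap. *Cd40* also increased over the SCR samples in the order of the *Rpl19* to *Polr2a* ratio, and the part of that was not tested. The log2 difference of *Cd40* was -0.41 without SCR replicate 3, -0.91 without SCR replicate 1, and between -0.96 and -0.20 over the scalings.

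The pattern of *Csf2* over the 12 samples was most like that of *Cd40* (Pearson r = 0.99), of *Fancl*, which encodes a ubiquitin ligase of the Fanconi anaemia pathway (r = 0.99), and of *Rfc4*, which encodes a subunit of the replication factor that loads the sliding clamp on DNA (r = 0.98), among 498 genes compared. For *Cd40* the order was *Rfc4*, *Csf2* and *Fancl*, each with r = 0.99. Since both genes were at the floor in AKT/NRAS, these correlations describe mainly the difference between the lines and the spread of AKT Cre/NRAS SCR, and samples of a line share their origin.

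*Cxcl5* was above the floor in every sample. It had 116, 151 and 214 normalized counts in AKT Cre/NRAS siRNA, 164, 158 and 231 in AKT Cre/NRAS SCR, 137, 162 and 184 in AKT/NRAS siRNA, and 80.2, 95.1 and 97.5 in AKT/NRAS SCR. Only AKT/NRAS SCR lay apart from the other 3 groups, below all of their samples. Under SCR, *Cxcl5* averaged 184 ± 40.6 in AKT Cre/NRAS and 90.9 ± 9.37 in AKT/NRAS, a log2 difference of 0.99. Under siRNA the means were 160.3 ± 49.6 in AKT Cre/NRAS and 160.8 ± 23.2 in AKT/NRAS, a log2 difference of -0.04. The gap between these 2 differences is that between the responses of the lines to siRNA, so they are given as a description. Averaged over treatments, which was tested, the log2 difference was 0.48 (SE 0.15, adjusted p = 0.0119), past the threshold in 6 of 7 scalings, and the adjusted p was 0.0812 with Benjamini-Yekutieli adjustment.

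Within AKT/NRAS, *Cxcl5* was higher in all 3 siRNA samples than in all 3 SCR samples, with a log2 difference of 0.81. In that comparison 11.5% of 496 genes were higher without overlap, which is not read further for a gene chosen by it. The difference was 0.78 to 1.14 over 7 scalings and 0.71 to 0.92 when any 1 sample was left out. Within AKT Cre/NRAS the siRNA and SCR samples overlapped and the log2 difference was -0.22, between -0.45 and 0.23 over the scalings. No test of the difference between the lines in this response was made. Among the genes closest to *Cxcl5* in pattern were *Clcf1*, a cytokine gene of the IL-6 family (r = 0.79), and *Skp2*, a ubiquitin ligase subunit gene (r = 0.78).

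**Figure D2:**
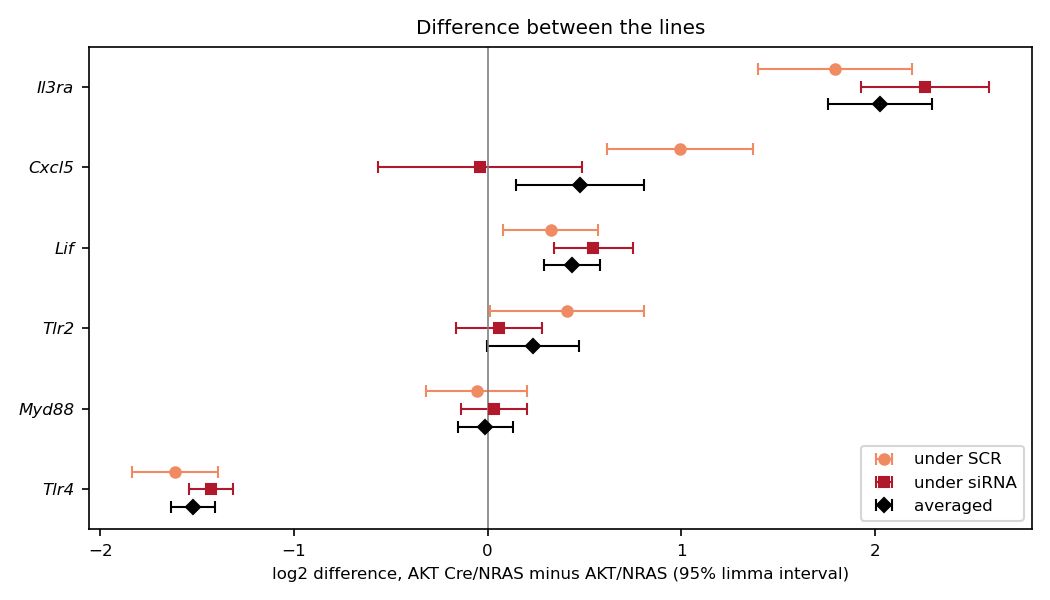
Log2 difference of AKT Cre/NRAS minus AKT/NRAS for the 6 genes not at the floor throughout a line, under SCR, under siRNA and averaged, with limma's 95% interval. *Il3ra* and *Lif* lie right of 0 and *Tlr4* left of it under both treatments, and *Cxcl5* is at 0.99 under SCR and at -0.04 under siRNA, both of these as a description.

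*Lif* had 280.1, 237 and 249 normalized counts in AKT Cre/NRAS siRNA, 236, 199.7 and 226 in AKT Cre/NRAS SCR, 169.8, 186 and 167 in AKT/NRAS siRNA, and 186, 175 and 166 in AKT/NRAS SCR. Every AKT Cre/NRAS sample lay above every AKT/NRAS sample. The log2 difference between the lines was 0.55 under siRNA (SE 0.09, adjusted p = 0.000710, past the threshold in 7 of 7 scalings) and 0.33 under SCR (SE 0.11, adjusted p = 0.0219, past it in 5 of 7). Under SCR the call was lost without AKT/NRAS SCR replicate 2 (adjusted p = 0.0725) or replicate 3 (adjusted p = 0.0748), and the value was -0.09 with 5 reference genes. With Benjamini-Yekutieli adjustment the adjusted p under SCR was 0.149. Averaged over treatments the difference was 0.44 (SE 0.06, adjusted p = 5.98e-05), past the threshold in 6 of 7 scalings. Against SCR, siRNA samples of AKT Cre/NRAS were above without overlap by 0.21, where the panel's median was 0.23 and 50.7% of genes were higher without overlap, and those of AKT/NRAS differed by -0.01 with overlap.

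*Il6* was at the floor in all 12 samples, before and after rescaling, so no level of it was read in either line.

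*Il3ra* had 263, 243 and 235 normalized counts in AKT Cre/NRAS siRNA, 213, 188 and 144 in AKT Cre/NRAS SCR, 40.7, 58.8 and 54.9 in AKT/NRAS siRNA, and 45.4, 47.5 and 61.5 in AKT/NRAS SCR. The lines were apart in every sample. The log2 difference was 1.79 under SCR (SE 0.17, adjusted p = 2.08e-05) and 2.26 under siRNA (SE 0.14, adjusted p = 4.14e-06), which are 3.47-fold and 4.78-fold, and all 7 scalings passed in both. In AKT Cre/NRAS the siRNA samples were above the SCR samples without overlap, with a log2 difference of 0.46 (0.23 to 0.91 over the scalings), where the panel's median was 0.23 and 50.7% of genes were higher without overlap. *Il3ra* decreased over the 3 AKT Cre/NRAS SCR samples as the *Rpl19* to *Polr2a* ratio increased, and the part of this was not tested. In AKT/NRAS the groups overlapped and the difference was -0.0040.

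*Tlr4* was the 1 gene of the 9 that was lower in AKT Cre/NRAS past the threshold. It had 301, 288 and 294 normalized counts in AKT Cre/NRAS siRNA, 270.3, 338 and 292 in AKT Cre/NRAS SCR, 803, 818 and 764 in AKT/NRAS siRNA, and 909.9, 915 and 925 in AKT/NRAS SCR. The lowest AKT/NRAS sample was above the highest AKT Cre/NRAS sample. The log2 difference between the lines was -1.61 under SCR (SE 0.10, adjusted p = 1.14e-06) and -1.43 under siRNA (SE 0.05, adjusted p = 1.46e-07), past the threshold in all 7 scalings. Within AKT/NRAS the siRNA samples lay below the SCR samples without overlap, at a log2 difference of -0.21, which was 0.13 with the values as deposited, and 23.2% of genes there were lower without overlap. Within AKT Cre/NRAS they overlapped at -0.02.

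*Tlr2* stood close to the floor. It had 27.1 (the floor), 33.6 and 27.6 normalized counts in AKT Cre/NRAS siRNA, 31.1, 41.2 and 52.4 in AKT Cre/NRAS SCR, 30.2 and 2 values at the floor in AKT/NRAS siRNA, and 30.9, 27.8 and 32.5 in AKT/NRAS SCR. The lines overlapped within each treatment. The log2 difference under SCR was 0.41 (adjusted p = 0.0576), past the threshold in 3 of 7 scalings and, without AKT Cre/NRAS SCR replicate 1, at an adjusted p of 0.00334. Under siRNA it was 0.06 (adjusted p = 0.598). Averaged it was 0.23 (adjusted p = 0.0663, and 0.00300 without the same replicate). Within AKT Cre/NRAS, siRNA and SCR samples overlapped and the log2 difference was -0.46, between -0.70 and -0.02 over 7 scalings. Within AKT/NRAS they overlapped at -0.11. *Tlr2* also increased over the AKT Cre/NRAS SCR samples in the order of the *Rpl19* to *Polr2a* ratio, and the part of that was not tested.

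*Myd88*, the adaptor of both Toll-like receptors, had 206, 216 and 219 normalized counts in AKT Cre/NRAS siRNA, 214, 178 and 195 in AKT Cre/NRAS SCR, 201, 226 and 201 in AKT/NRAS siRNA, and 184, 211 and 215 in AKT/NRAS SCR. All 4 groups overlapped. *Myd88* differed between siRNA and SCR by 0.13 in AKT Cre/NRAS and by 0.04 in AKT/NRAS on the log2 scale. Its log2 difference between the lines was -0.06 under SCR (95% interval -0.32 to 0.20, adjusted p = 0.670), 0.03 under siRNA (adjusted p = 0.706) and -0.01 averaged (95% interval -0.15 to 0.13, adjusted p = 0.867), with no scaling past the threshold.

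**Figure D3:**
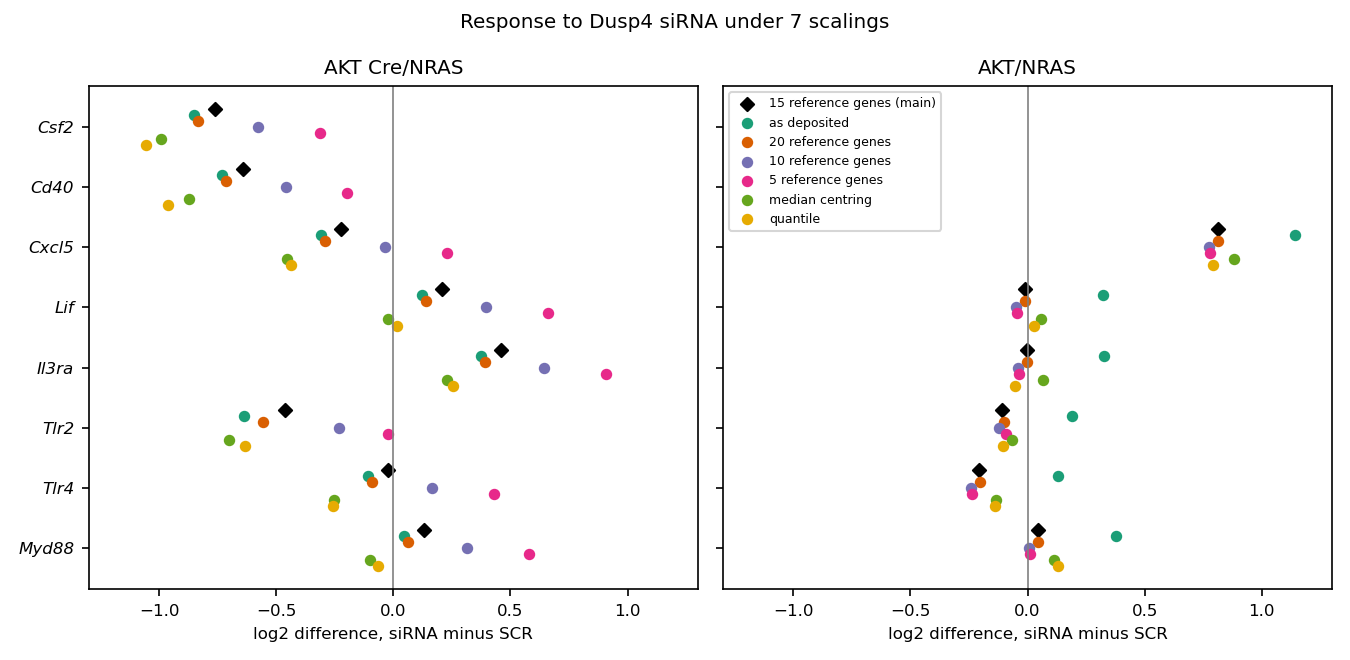
Log2 difference of siRNA minus SCR for the genes above the floor, in AKT Cre/NRAS (left) and AKT/NRAS (right), under 7 scalings, given as a description. *Csf2* and *Cd40* stay below 0 in AKT Cre/NRAS, between -1.06 and -0.31 and between -0.96 and -0.20, *Cxcl5* stays above 0 in AKT/NRAS, and *Csf2* and *Cd40* are left out of the right panel because they were at the floor there in the main scaling.

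Of the receptor chains and ligands that act with these 9 genes, 5 were measured. *Csf2rb*, the beta chain shared by the IL-3 and GM-CSF receptors, and *Il3*, the ligand of *Il3ra*, were at the floor in all 12 samples. *Lifr*, the receptor of *Lif*, was far higher in AKT Cre/NRAS, with 679 ± 77.2 normalized counts in AKT Cre/NRAS and 79.7 ± 14.1 in AKT/NRAS under SCR (log2 difference 3.08, adjusted p = 3.51e-07), and 855 ± 7.28 and 74.1 ± 3.29 under siRNA (3.51, adjusted p = 5.89e-09). *Il6ra*, the IL-6 receptor, was higher in AKT Cre/NRAS under siRNA by 1.05 (adjusted p = 7.24e-05), with 67.5 ± 1.41 in AKT Cre/NRAS and 32.2 ± 4.93 in AKT/NRAS, and under SCR its difference was 0.37 (adjusted p = 0.148). Under each treatment, *Il6ra* was at the floor in 1 of 3 AKT/NRAS samples. Its differences between the lines and their adjusted p therefore rest on values at or near the floor. *Cd14*, the coreceptor of *Tlr4* for lipopolysaccharide, had 1717 ± 82.7 in AKT Cre/NRAS and 1408 ± 92.5 in AKT/NRAS under SCR, a difference of 0.29 (adjusted p = 0.00925) that ranged from -0.13 to 0.79 over the scalings. Under siRNA it was 0.18 (adjusted p = 0.00373). In AKT Cre/NRAS, siRNA samples were higher than SCR samples in *Lifr* by 0.34 and in *Il6ra* by 0.67 (adjusted p = 0.0223 for each), past the threshold in 4 and 3 of 7 scalings.

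Most other cytokine and chemokine genes were not read. Of 27 measured, 20 were at the floor in all samples of the comparison under SCR. Of the other 7, *Cxcl1* and *Clcf1* were higher in AKT Cre/NRAS past the threshold. *Il11* averaged 38.0 in AKT Cre/NRAS SCR and was at the floor in all AKT/NRAS samples. *Il15* and *Tnf* were at it in all AKT Cre/NRAS samples, and *Tnf* averaged 35.1 in AKT/NRAS SCR. For these 3 genes no call is read. The median log2 difference of the 7 was 0.17 beside -0.22 over all genes tested, of which 28.9% were higher and 48% lower. Under siRNA *Cxcl1* and *Clcf1* were again higher past the threshold, where 36.6% of all genes tested were higher. *Cxcl1*, a neutrophil chemokine that shares its receptor with *Cxcl5*, had 328 ± 84.9 normalized counts in AKT Cre/NRAS and 95.6 ± 5.84 in AKT/NRAS under SCR (1.74, adjusted p = 2.39e-05), and 246 ± 13.6 and 125 ± 21.5 under siRNA (0.98, adjusted p = 0.000255). *Il15*, a growth factor of lymphocytes, was at the floor in all AKT Cre/NRAS samples and had 84.4 ± 0.77 in AKT/NRAS SCR, so it was at least 3.12-fold lower in AKT Cre/NRAS, with no p given against the floor. Of 27 other cytokine receptors, 8 were tested under SCR, and 3 were higher and 2 lower. *Ghr*, the growth hormone receptor, was higher by 3.64 and *Crlf2*, a chain of the TSLP receptor, by 2.39, while *Il22ra1*, a chain of the IL-22 receptor, was lower by 1.95 on the log2 scale (adjusted p = 1.69e-07, 8.76e-07 and 2.49e-06). *Crlf2* was at the floor in 2 of 3 AKT/NRAS SCR samples and at 29.0 in the third. Its difference is therefore a lower bound, and its adjusted p rests on values at or near the floor.

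In the signalling that leads from Toll-like receptors, the IL-1 receptor and *Cd40* to NF-kappaB, 15 of 16 measured genes were tested under SCR, and 8 were lower in AKT Cre/NRAS and 2 higher (median -0.39), beside 48% lower and 28.9% higher and a median of -0.22 over all genes tested. *Nfkbia*, which encodes an inhibitor of NF-kappaB, had 912 ± 31.1 normalized counts in AKT Cre/NRAS and 2145 ± 80.4 in AKT/NRAS (-1.23, adjusted p = 8.34e-07). *Map3k7*, which encodes the kinase TAK1, differed by -1.15 (adjusted p = 1.24e-05) and *Nfkbiz*, an atypical inhibitor gene, by -1.15 (adjusted p = 1.09e-05). Under siRNA 8 of 16 were lower and 4 higher (median -0.12), beside 37.9% lower and 36.6% higher over all genes tested, among the higher *Rela*, a subunit gene of NF-kappaB, at 0.66 (adjusted p = 3.67e-06). Of 10 tested JAK, STAT and SOCS genes, 4 were higher and 5 lower under SCR, and 4 were higher and 4 lower under siRNA. *Socs2*, a cytokine-induced inhibitor gene, was higher by 2.55 under SCR and 2.81 under siRNA (adjusted p = 4.23e-08 and 2.25e-07), and *Jak2*, a kinase gene of cytokine receptors, was higher by 0.76 and 1.03 (adjusted p = 2.06e-05 and 1.53e-06).

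**Figure D4:**
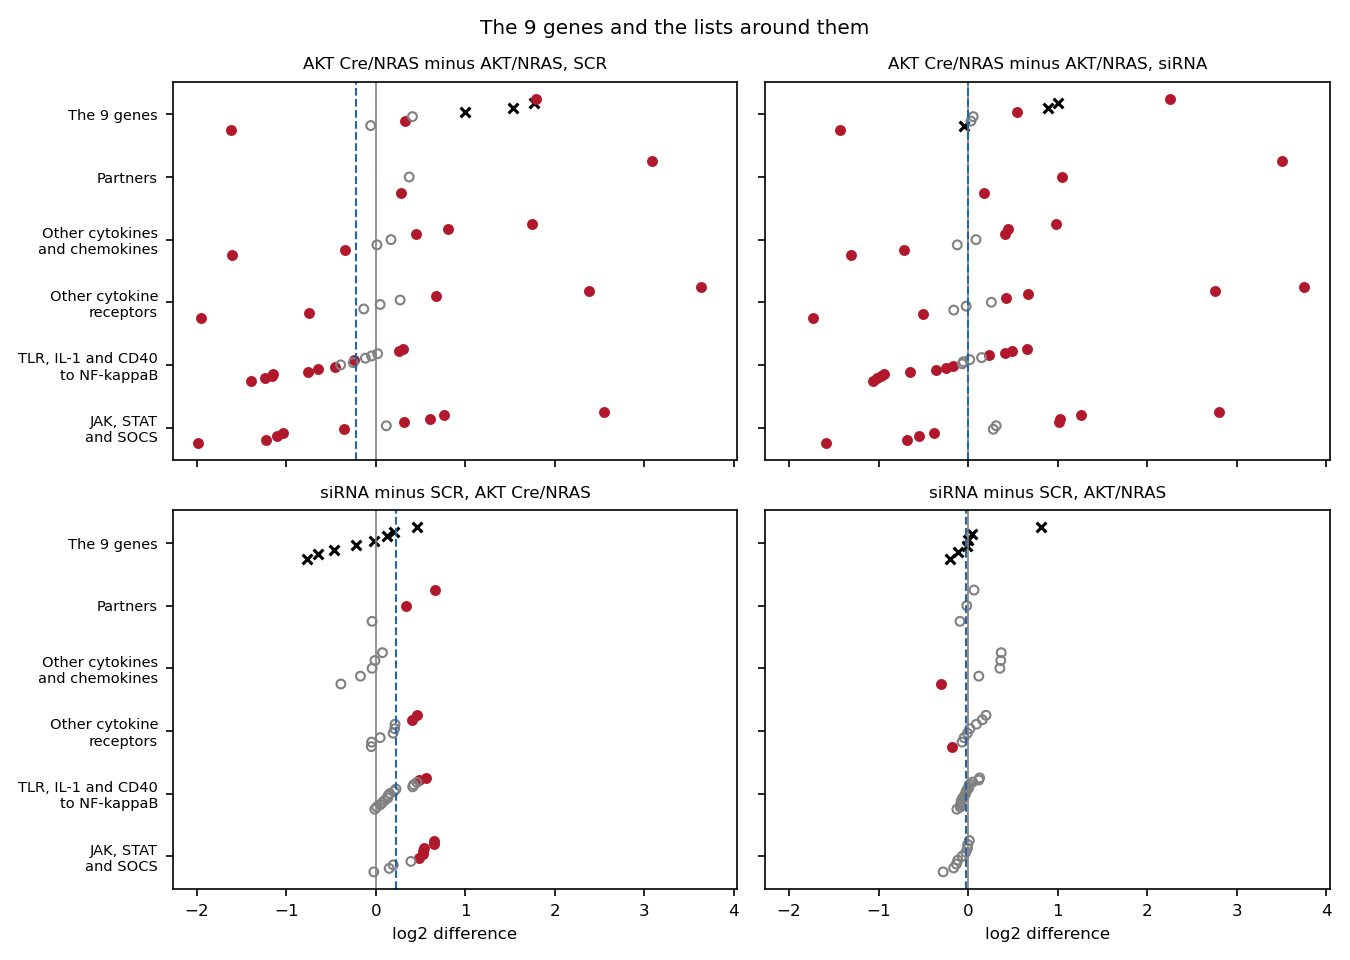
Log2 differences of the tested genes in each list, between the lines (top) and for siRNA minus SCR (bottom), with the median of all genes tested as a dashed line. Filled points passed limma's threshold, open points did not, and crosses mark those of the 9 genes to which no test applies. No call between the lines is read for list genes at the floor throughout a line, among them *Il11*, *Il15*, *Tnf* and *Il1rap*. Their points carry no cross and are filled or open by the same threshold. Between the lines the partners lie above 0 and the other lists on both sides of it, and the calls of the lists in AKT Cre/NRAS after siRNA are all above 0.

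After siRNA in AKT Cre/NRAS, where 40.6% of 503 genes were higher and 5.37% lower past the threshold (45.9% in either direction), 12 list genes passed and all were higher. They were 2 of 3 partners (*Lifr* and *Il6ra*), 2 of 8 cytokine receptors (*Crlf2* by 0.46 and *Il1rap* by 0.40), 2 of 15 NF-kappaB pathway genes (*Rela* by 0.57 and *Nfkb1* by 0.48) and 6 of 10 JAK, STAT and SOCS genes, whose median was 0.51 beside 0.23 over all genes tested. *Stat3*, the transcription factor downstream of gp130, had 1558 ± 21.6 normalized counts in siRNA and 999 ± 165 in SCR samples (0.65, adjusted p = 0.00355), *Socs3*, its feedback inhibitor gene, 297 ± 19.1 and 204 ± 10.9 (0.54, adjusted p = 0.00542), and *Socs1* differed by 0.65 (adjusted p = 0.00738). None of the 5 other cytokine genes tested passed. Over all lists together, the 12 calls were a smaller share of the genes tested than the 40.6% of the panel. With the replicate number as a block, 5 NF-kappaB pathway genes and 1 cytokine gene passed, the cytokine gene lower. With the values as deposited, none of the 12 calls held and the count was 0, where over the whole panel 0 genes were higher and 1 lower. In AKT/NRAS, where 5.44% of 496 genes were higher and 11.9% lower (17.3% in either direction), *Il15* (-0.30, adjusted p = 0.0467) and *Ifnar2*, an interferon receptor gene (-0.18, adjusted p = 0.0347), were the 2 list genes that passed. They were 1 of 5 other cytokine genes and 1 of 8 cytokine receptors tested. None of 3 partners, 16 NF-kappaB pathway genes and 9 JAK, STAT and SOCS genes passed. Both *Il15* and *Ifnar2* were above 0 with the values as deposited, where the panel's median was 0.30.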

How the data were processed

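Deposited values were used as a signal per gene probe: the authors counted barcodes on the nCounter system, and the values are counts multiplied, sample by sample, by 1 number set by the positive controls, with values at or under 20 set to 20. Columns were assigned by the run number in the labels. Values between the floor and 200 gave whole counts in 100% of cases (tolerance 0.02). The reference gene step that the study's methods name is not in these values, so it was completed with geNorm over all 12 samples (15 of 20 reference genes), and values below 27.1, the common floor, were set to it. Genes at the floor throughout a comparison were dropped. limma 3.58.1 (R 4.3.3, trend) was run on log2(value + 1), with Benjamini-Hochberg adjustment over all genes tested and a threshold of 0.05, for the samples of each comparison and, for the average, all 12. An exact permutation test of 3 against 3 cannot go below 0.1. No count model was fitted, because counts at the floor are unknown. Same-numbered siRNA and SCR samples of AKT Cre/NRAS deviated together (r = 0.19, 0.10 and 0.18). So did same-numbered siRNA samples of the 2 lines (r = 0.21, 0.04 and 0.17), while those of the other comparisons did not in every pair. The labels do not say that the numbers pair samples. Counts of list genes with the replicate number as a block are therefore given as well. The fits were tested on simulated data.

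The 9 genes, the lists and the scaling were chosen with earlier results of these data known. Named list genes are all measured partners and, per list and comparison, up to 3 with the smallest p among those past the threshold, and a few genes that this selects are not reported here. Alternatives were other scalings, filters, pseudocounts, adjustments and fits, and each sample left out. Figures were drawn with matplotlib 3.10.9.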

Additional observations from a re-analysis of the deposited data

Results flagged for a closer look

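In 6 of 37 list genes tested in both lines (16.2%), all 3 siRNA samples lay apart from all 3 SCR samples in opposite directions in the 2 lines, beside 75 of 474 genes of the panel (15.8%), and 5 of the 6 are among the genes named here. The log2 differences of siRNA minus SCR in AKT Cre/NRAS and in AKT/NRAS were -0.39 and 0.37 for *Cxcl1*, 0.15 and -0.11 for *Jak2*, 0.48 and -0.12 for *Nfkb1*, 0.57 and -0.0751 for *Rela*, and 0.54 and -0.16 for *Socs3*. The difference between the lines in these responses was not tested. The responses of *Cxcl1* and *Jak2* in AKT Cre/NRAS missed limma's threshold (adjusted p = 0.0712 and 0.161), and so did each response in AKT/NRAS (adjusted p = 0.0858 for *Cxcl1*, 0.173 for *Jak2*, 0.136 for *Nfkb1*, 0.231 for *Rela* and 0.191 for *Socs3*). With the values as deposited, the responses of *Jak2*, *Nfkb1*, *Rela* and *Socs3* in AKT/NRAS were above 0, at 0.22, 0.21, 0.26 and 0.17. The response of *Cxcl1* in AKT Cre/NRAS was 0.06 with 5 reference genes, and that of *Jak2* was -0.08 with median centring. *Cxcl1* in AKT Cre/NRAS SCR read 265, 296 and 425 normalized counts, in the order of the *Rpl19* to *Polr2a* ratio of those samples, and the part of that was not tested.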

How the results depend on the processing

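Scaling moved the responses to siRNA most. With the 5 reference genes ranked first, an alternative added after the data were seen, the responses in AKT Cre/NRAS were -0.31 for *Csf2*, -0.20 for *Cd40* and 0.23 for *Cxcl5*, and *Lif* between the lines under SCR was -0.0933. As deposited, the *Cxcl5* response in AKT/NRAS was 1.14, that of *Tlr2* 0.19 and that of *Tlr4* 0.13. In AKT Cre/NRAS, the *Lif* response was -0.0236 with median centring, and that of *Myd88* -0.10 with median centring and -0.0644 with quantile normalization. Fits of *Csf2* and *Cd40* between the lines, and of *Cxcl5* within a treatment, are not counted here, since no test applies to them. Counts of list genes between the lines can include *Il11*, *Il15*, *Tnf* and, under siRNA, *Il1rap*, each at the floor throughout 1 line. The 12 list genes higher after siRNA in AKT Cre/NRAS became 0 as deposited, 7 with all 20 reference genes, 19 with 10 or 5, 5 with median centring or quantile normalization, 3 without a filter or with Benjamini-Yekutieli adjustment, which the study's methods name, and 20 with one fit over all groups. The whole panel moved as well: 204 genes higher and 27 lower became 0 and 1 as deposited and 141 and 20 with 20 reference genes. With 10 reference genes 252 were higher and 4 lower, and with 5 they were 254 and 1. Median centring gave 59 and 66, and quantile normalization 53 and 40. The 2 list genes in AKT/NRAS became 26 as deposited, 4 with 20 reference genes, 5 with 5 or quantile normalization, 4 with the mean filter or no trend, 1 with one fit and 0 without a filter or with Benjamini-Yekutieli adjustment. Over the whole panel, 27 genes higher and 59 lower became 287 and 3 as deposited and 34 and 74 with 20 reference genes. They became 22 and 88 with 5 reference genes and 47 and 38 with quantile normalization. With the replicate number as a block, 31 and 36 list genes passed between the lines under SCR and under siRNA. After siRNA, 17 list genes passed in AKT Cre/NRAS and 1 in AKT/NRAS. The block cannot change a difference of group means here, because each replicate number occurs once in every group.

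With 1 sample left out, *Il3ra* and *Tlr4* passed between the lines in every fit under SCR, under siRNA and averaged. *Lif* passed in every fit under siRNA and averaged, and in 4 of 6 under SCR. *Cxcl5* averaged passed in every fit. *Tlr2* passed in 1 of 6 fits under SCR and 1 of 12 averaged, and *Myd88* in none. List genes between the lines were 27 to 34 under SCR and 32 to 35 under siRNA. After siRNA, 5 to 20 list genes passed in AKT Cre/NRAS and 0 to 3 in AKT/NRAS. The responses then lay from -1.01 to -0.48 for *Csf2*, -0.91 to -0.41 for *Cd40* and -0.45 to -0.01 for *Cxcl5* in AKT Cre/NRAS, and from 0.71 to 0.92 for *Cxcl5* in AKT/NRAS. Levels of *Csf2*, *Cd40* and *Tlr2* lie near background, so counting error limits them.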
